A study of Mus musculus with 2 samples.

Results

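The type I interferon-stimulated genes followed here are 33 of the 56941 genes in the count matrices, from Isg15, the Ifit and Oas families and the Mx genes to the transcription factors Irf7, Stat2 and Irf9. They were chosen by gene symbol as known targets of the pathway, with earlier results of these data known, and all 33 symbols were found. The libraries hold CD45+ cells from liver metastases that grew in C57BL/6 mice aged 6 to 8 weeks after intrasplenic injection of MC38-LM3b cells, a line of the MC38 mouse colon cancer with a raised capacity to spread to the liver. The injected cells carried a scrambled hairpin (Ctrl) or a hairpin against SLAMF3 (KD), and lesions were taken 2 weeks after injection. Lesions of 3 mice were pooled into 1 library per group, and there is no replicate error and no test. The intervals in brackets are 95% intervals for counting error only, of UMIs or, for shares of cells, of cells. The hairpin sat in the tumor cells alone, and the immune cells of both groups came from hosts without it.

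Type I interferons are secreted proteins that bind the receptor IFNAR, which is present on nearly all nucleated cells. The kinases JAK1 and TYK2 then activate a complex that holds STAT2 and IRF9 and binds the interferon-stimulated response element (ISRE) in the promoters of its targets. Interferon-gamma, made mainly by T and NK cells, acts through another receptor and at the GAS element, and many genes respond to both. In tumors the pathway is known for its part in antigen presentation and in the activity of dendritic cells, T cells and neutrophils.

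Promoter sequence is shown because the ISRE is the element through which type I interferon is known to act on many of these genes. RefSeq promoter windows (build GRCm38.p6, 250 bases before to 50 after the start) were at hand for 24 of the 33 genes, in 30 windows. The letters searched for the ISRE were GAAA, 2 bases of any kind and GAAA, on both strands, and they occurred in 12 of the 30 member windows (40%) and in 3.44% of 32851 windows of all genes. The letters of the GAS element, TTCNNNGAA, occurred in 5 of 30 (16.7%) and in 8.30% of all windows, and in 1 member window a match of one kind overlapped a match of the other. The 200 bases before the start are given 5′ to 3′ on the strand of the gene, with the ISRE letters or their reverse complement in capitals. Isg15 is shown as the gene with most matches (3, overlapping, with first bases 78, 72 and 66 bases before the start), Ifit3 and Ifit3b as near-identical neighbors, Rsad2 and Bst2 for their contrasting patterns across cells, and Sp100 as a window without the letters.
Isg15 (chr4:156200819-156201018, minus strand): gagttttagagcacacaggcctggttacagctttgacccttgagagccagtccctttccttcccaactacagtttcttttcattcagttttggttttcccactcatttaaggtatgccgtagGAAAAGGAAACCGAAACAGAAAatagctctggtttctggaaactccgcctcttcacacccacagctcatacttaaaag
Ifit3 (chr19:34583329-34583528, plus strand): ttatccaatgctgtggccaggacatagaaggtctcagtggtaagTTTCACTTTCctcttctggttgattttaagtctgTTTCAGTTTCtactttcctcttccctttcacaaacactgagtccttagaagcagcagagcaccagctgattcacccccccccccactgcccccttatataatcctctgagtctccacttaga
Ifit3b (chr19:34607757-34607956, plus strand): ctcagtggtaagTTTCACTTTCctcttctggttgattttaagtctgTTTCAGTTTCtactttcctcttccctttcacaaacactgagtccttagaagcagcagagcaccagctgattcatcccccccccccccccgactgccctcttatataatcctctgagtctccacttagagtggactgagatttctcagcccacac
Rsad2 (chr12:26456453-26456652, minus strand): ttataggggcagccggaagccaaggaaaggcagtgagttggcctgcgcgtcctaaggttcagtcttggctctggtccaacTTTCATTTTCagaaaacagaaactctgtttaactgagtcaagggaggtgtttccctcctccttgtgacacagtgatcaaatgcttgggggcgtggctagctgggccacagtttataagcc
Bst2 (chr8:71537473-71537672, minus strand): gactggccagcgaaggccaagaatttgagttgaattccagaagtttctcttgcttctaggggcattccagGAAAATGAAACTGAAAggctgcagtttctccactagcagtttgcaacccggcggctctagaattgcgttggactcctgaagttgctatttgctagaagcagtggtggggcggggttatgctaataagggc
Sp100 (chr1:85649788-85649987, plus strand): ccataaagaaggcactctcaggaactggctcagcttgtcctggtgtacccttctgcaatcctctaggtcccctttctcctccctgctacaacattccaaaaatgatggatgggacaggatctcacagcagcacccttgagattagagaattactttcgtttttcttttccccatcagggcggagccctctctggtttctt

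Counts are of UMIs (unique molecular identifiers), each of which tags 1 captured RNA molecule. In total there were 67207234 UMIs over 10416 Ctrl barcodes and 64444715 over 10943 KD barcodes, of which 9814 and 10185 passed the filters. The median depth per kept cell was 5411.5 UMIs in Ctrl and 4989 in KD, and 27 barcodes occurred in both libraries. Cells were assigned to classes by clustering, with the members and the other interferon genes listed for this report left out. Genes outside these lists that respond to interferon could still take part. The class names below stand for granulocyte-like, macrophage-like (monocytes included) and T cell-like clusters and so on. In each named class the summed level of its own markers was above that of the other cells, for example 1142 granulocyte marker UMIs per 10,000 in granulocytes against 11.6 in the other cells. The clusters had been named from these same markers, so this comparison describes the classes and does not test the names. The leading genes of the cluster with NK markers also included Lef1 and Tcf7, known from T cells, and a cluster led by Ifng, Gzma and Ccl5 stayed unnamed. Ly9, which encodes SLAMF3, had 12 UMIs in Ctrl and 7 in KD in the tumor or fibroblast cells, so the knockdown could not be checked at this depth.

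The summed level of the 33 genes was lower in KD in granulocytes and macrophages and close to equal in T cells and pDCs (plasmacytoid dendritic cells). Levels are given as UMIs of a gene, or of all 33 genes, per 10,000 UMIs of the cells, and a log2 ratio is KD over Ctrl. Over all cells the summed level was 23.6 (23.5 to 23.8) in Ctrl and 18.3 (18.2 to 18.4) in KD, a log2 ratio of -0.37 (-0.38 to -0.35). Granulocytes had the highest summed level of all classes in Ctrl, at 83.0 (81.7 to 84.3) over 775 cells, and 25.2 (24.8 to 25.5) over 2217 cells in KD. Their log2 ratio was -1.72 (-1.75 to -1.69), the lowest of the 11 classes. The libraries held different kinds of granulocytes, and the log2 ratio was -1.06 when KD was given the sub-cluster mix of Ctrl, -1.12 as the mean over all 6 granulocyte sub-clusters and -0.95 as the mean over the 2 sub-clusters with at least 50 cells in each library. Macrophages had 32.3 (32.1 to 32.5) in Ctrl over 4114 cells and 20.6 (20.4 to 20.8) in KD over 3082 cells, a log2 ratio of -0.65 (-0.66 to -0.63). T cells had the lowest summed level in Ctrl, at 10.1 (9.97 to 10.2) over 3218 cells, and 10.1 (9.89 to 10.3) over 1616 cells in KD, with a log2 ratio of -0.0031 (-0.035 to 0.029). Their KD level overlapped that of B cells.

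**Figure D1:**
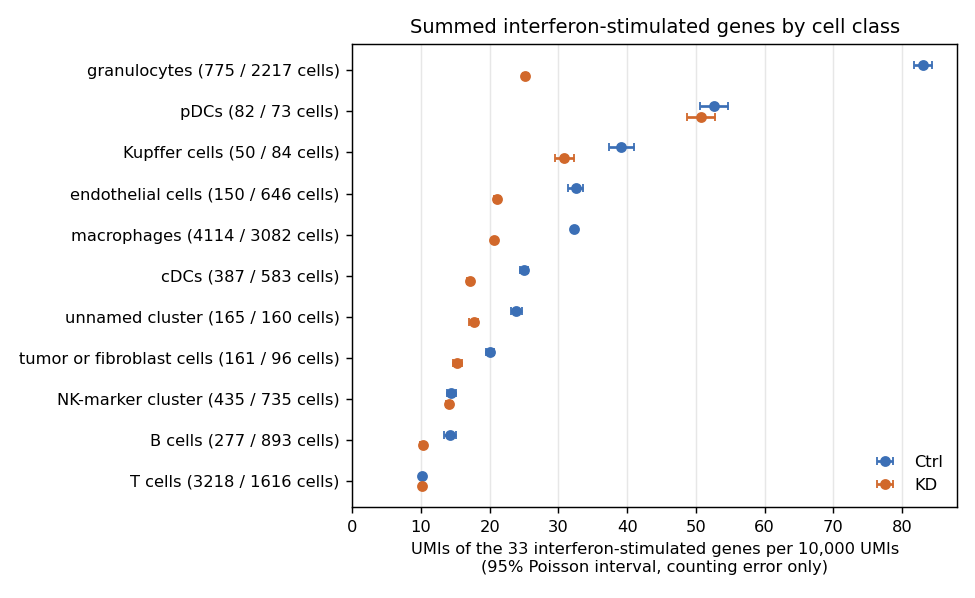
Summed UMIs of the 33 genes per 10,000 UMIs (x axis) in each class of cells (y axis, with Ctrl and KD cell numbers), points for the Ctrl and KD libraries and bars for the 95% Poisson interval. Granulocytes span 83.0 in Ctrl to 25.2 in KD, whereas the points of T cells and of pDCs lie on top of each other or nearly so.

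Among the smaller classes, pDCs were the highest in KD, at 52.7 (50.6 to 54.7) over 82 Ctrl cells and 50.7 (48.7 to 52.8) over 73 KD cells, a log2 ratio of -0.054 (-0.14 to 0.027). Kupffer cells, the resident macrophages of the liver, had 39.1 over 50 Ctrl cells and 30.9 over 84 KD cells (log2 ratio -0.34, -0.44 to -0.25). Endothelial cells had 32.5 and 21.1 (log2 ratio -0.62, -0.68 to -0.57), and cDCs (conventional dendritic cells) had 25.04 and 17.1 (-0.55, -0.60 to -0.51). B cells had 14.2 and 10.3 (-0.47, -0.57 to -0.37), tumor or fibroblast cells 20.02 and 15.3 (-0.39, -0.47 to -0.31), and the unnamed cluster 23.9 and 17.7 (-0.44, -0.51 to -0.36). The cluster with NK markers had 14.4 and 14.02, a log2 ratio of -0.042 (-0.12 to 0.031). The order of the classes therefore differed between the libraries: granulocytes were first of 11 in Ctrl, above pDCs, and in KD they were below pDCs and Kupffer cells. Of all UMIs of the 33 genes, macrophages held 55.9% in Ctrl and 43.9% in KD, and granulocytes 9.94% and 16.1%, at 7.90% and 21.8% of the cells.

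With at least 50 UMIs in both libraries together, 24 of 30 members were lower by 2-fold or more in KD granulocytes, where 7.07% of all genes were, and 0 were higher by 2-fold, against 7.61% of all genes. All 30 had a log2 ratio below 0, with a median of -1.58 beside 0.14 over all genes; Ifi44, Mx1 and Mx2 had too few UMIs to be counted. In macrophages all 33 had a log2 ratio below 0 with a median of -0.69, beside -0.034 over all genes, and 4 (Isg15, Mx1, Rsad2 and Ifi47) were lower by 2-fold or more, against 2.87% of all genes, while 2.54% of all genes were higher by that much. In T cells 0 of 31 were past 2-fold in either direction, where 1.59% of all genes were lower and 2.53% higher by that much. There, 18 of the 31 had a log2 ratio below 0 and 13 above, with a median of -0.064. No member was higher by 2-fold or more in any whole class, while the share of all genes that were was 1.2% in the cluster with NK markers, 1.53% in B cells, 1.91% in cDCs, 1.33% in pDCs, 2.49% in Kupffer cells, 3.01% in endothelial cells, 1.29% in tumor or fibroblast cells and 2.51% in the unnamed cluster. Over all cells together 0 of 33 were past 2-fold, where 4.15% of all genes were lower and 6.55% higher by that much.

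The effector Isg15 stood out. ISG15 is a small protein that is coupled to others much as ubiquitin is, and it is also secreted. Isg15 (ENSMUSG00000035692) had 3246 UMIs in Ctrl granulocytes, or 17.8 per 10,000, and 2464 in KD granulocytes, or 3.40, a log2 ratio of -2.39 (-2.47 to -2.31). It made up 21.5% of the member UMIs of Ctrl granulocytes and 13.5% of those of KD granulocytes, more than any other member. In macrophages its level was 3.25 in Ctrl and 1.40 in KD, with a log2 ratio of -1.21 (-1.27 to -1.15), the lowest of the 33 genes there. In T cells its level was 0.372 in Ctrl and 0.419 in KD, a log2 ratio of 0.17 (0.01 to 0.33), and in pDCs it was 0.653 and 0.730. pDCs thus had a high summed level with little Isg15.

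Usp18 encodes the protease that removes ISG15 from its targets and damps signaling at the receptor. Its level was 0.462 in Ctrl and 0.153 in KD granulocytes (log2 ratio -1.59, -2.01 to -1.16), and 0.263 and 0.142 in macrophages (-0.89, -1.09 to -0.71). In T cells Usp18 had the lowest log2 ratio of the members with at least 200 UMIs, at -0.27, with an interval that includes 0 (-0.62 to 0.07; levels 0.106 and 0.0878). Herc6, which encodes the main ligase that couples ISG15 in mice, had a log2 ratio of -2.33 in granulocytes, -0.83 in macrophages and 0.07 in T cells.

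The IFIT family, whose proteins bind foreign RNA and block its translation, had some of the lowest log2 ratios in granulocytes. Ifit2 had 262 UMIs in Ctrl and 131 in KD granulocytes, levels of 1.44 and 0.181 and a log2 ratio of -2.99 (-3.31 to -2.68), the lowest among members with at least 200 UMIs. Ifit3 followed with levels of 1.69 and 0.231 (-2.87, -3.15 to -2.59), and Ifit3b, with fewer UMIs, had 0.665 and 0.0801 (-3.05, -3.53 to -2.59). Ifit3 and Ifit3b are near-identical copies, as their promoter stretches also show, and how reads were split between them is uncertain. Ifit1 had levels of 1.30 and 0.309 (-2.07, -2.34 to -1.80). Summed, the 4 genes had 5.09 in Ctrl and 0.801 in KD granulocytes (log2 ratio -2.67), 1.10 and 0.633 in macrophages (-0.80), and 0.292 and 0.277 in T cells (-0.078, -0.27 to 0.12). In endothelial cells the sum was 2.02 in Ctrl and 0.796 in KD (-1.34, -1.59 to -1.10), the lowest log2 ratio of any role group in that class, and in pDCs it rested on 34 and 19 UMIs.

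The OAS family, several members of which sense double-stranded RNA and so activate RNase L, differed less in granulocytes. Summed, its 5 members had 7.71 in Ctrl and 3.82 in KD granulocytes (log2 ratio -1.01, -1.11 to -0.92), 2.81 and 1.87 in macrophages (-0.59) and 0.215 and 0.227 in T cells (0.078, -0.14 to 0.30). Among members with at least 200 UMIs, Oas2 and Oas3 had the highest log2 ratios in granulocytes, at -0.70 (-1.01 to -0.37; levels 0.648 and 0.400) and -0.75 (-0.97 to -0.52; levels 1.32 and 0.790). Oasl2 had -1.02 there, Oas1a -1.31 and Oasl1 -1.73. In macrophages the 5 log2 ratios lay between -0.66 (Oasl1) and -0.33 (Oas2). In T cells Oasl1, with 122 UMIs, had the lowest log2 ratio of the members counted, at -0.71 (-1.40 to -0.07), and Oasl2, with 164 UMIs, the highest, at 0.49 (0.01 to 0.96). Oasl1 and Oasl2, and Oas1a and its neighbors, are close paralogs, so the split of reads between them is uncertain.

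The GTPases were led by Ifi47, an immunity-related GTPase that is known to respond to interferon-gamma as well. Ifi47 had levels of 5.50 in Ctrl and 0.790 in KD granulocytes (log2 ratio -2.80, -2.95 to -2.65) and 2.04 and 0.971 in macrophages (-1.07, -1.14 to -1.003). In T cells its levels were 0.647 and 0.658 (0.024, -0.10 to 0.15). Mx1, an antiviral GTPase whose copy in C57BL/6 mice is known to be defective, had 944 UMIs in Ctrl and 402 in KD macrophages, levels of 0.359 and 0.167 and a log2 ratio of -1.11 (-1.28 to -0.94). In granulocytes, where most members were highest, Mx1 had only 4 UMIs in Ctrl and 7 in KD, and Mx2 had 1 and 4. Mx2 had -0.76 in macrophages and -1.81 (-2.37 to -1.24) in endothelial cells, from 53 and 57 UMIs.

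Of the 7 genes grouped as effectors against viral replication, Rsad2 encodes viperin, a radical SAM enzyme. Rsad2 had levels of 7.81 in Ctrl and 1.21 in KD granulocytes (log2 ratio -2.69, -2.81 to -2.57), 1.22 and 0.578 in macrophages (-1.08, -1.17 to -0.99) and 0.0839 and 0.0717 in T cells (-0.23, -0.62 to 0.15). In Kupffer cells it had 3.41 and 1.55 (-1.14, -1.52 to -0.76), and together with Dhx58 it was 1 of the 2 members of 20 lower by 2-fold or more there, where 3.02% of all genes were. Its genomic neighbor Cmpk2, a mitochondrial nucleotide kinase, had -1.70 in granulocytes and -0.83 in macrophages.

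Bst2, which encodes the tetherin that holds virus particles at the cell surface and is a known surface marker of mouse pDCs, followed another order across classes. Its level was 36.8 in Ctrl and 34.0 in KD pDCs, a log2 ratio of -0.11 (-0.21 to -0.01), and it made up 69.8% and 67.1% of the member UMIs there. The summed level of the other 32 members in pDCs was 15.9 and 16.7, below that of macrophages at 27.2 and 17.4 in both libraries. Endothelial cells came next, with 9.91 and 6.23 (-0.67, -0.77 to -0.57). In macrophages Bst2 was the member with most UMIs, with levels of 5.10 and 3.27 (-0.64, -0.68 to -0.60). In T cells the levels were 1.496 and 1.25 (-0.25, -0.34 to -0.17), and in granulocytes, where its KD level was the lowest of all classes, 1.34 and 0.436 (-1.62, -1.87 to -1.37).

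Xaf1, a factor linked to apoptosis, had -2.23 in granulocytes and -0.89 in macrophages, and Rtp4, a chaperone of receptor transport, -1.52 and -0.85. Ifi44 had 2 and 4 UMIs in granulocytes. In macrophages it had 654 and 301 (-0.99, -1.20 to -0.79), and in cDCs, with 81 and 43 UMIs, its log2 ratio of -1.84 (-2.41 to -1.29) was the lowest of the class. Isg20, an exonuclease, had 2.83 and 1.05 in granulocytes (-1.44) but the highest log2 ratio of the T cell members with at least 200 UMIs, at 0.27 (0.09 to 0.46; levels 0.273 and 0.330). Rtp4 came second in T cells, at 0.27 (-0.02 to 0.55; levels 0.117 and 0.142).

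Ifih1 encodes MDA5, a cytosolic sensor of long double-stranded RNA, and Dhx58 encodes its regulator LGP2. Ifih1 had the highest log2 ratio of all members in macrophages, with levels of 0.815 and 0.809 (-0.01, -0.10 to 0.08), and 0.49 (0.21 to 0.79) in cDCs, but 1.59 and 0.536 in granulocytes (-1.57, -1.79 to -1.34). Dhx58 had -0.90 in macrophages, and -0.51 (-1.14 to 0.15) in granulocytes, from 29 and 81 UMIs. In T cells its log2 ratio was -0.27 (-0.66 to 0.10; levels 0.0875 and 0.0726). Zbp1, a sensor of Z-form nucleic acids, had 4.04 and 1.47 in granulocytes (-1.46) and 2.39 and 1.38 in macrophages (-0.79). Ifi204, which binds DNA and has near-identical neighbors in its cluster, had 4.32 and 1.13 in granulocytes (-1.94) but 2.69 and 2.31 in macrophages (-0.22, -0.28 to -0.17).

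The transcription factors of the pathway were lower in KD granulocytes and differed less elsewhere. Irf7, which amplifies interferon production, had 1.34 and 0.570 in granulocytes (-1.23, -1.47 to -0.999), 1.004 and 0.622 in macrophages (-0.69, -0.78 to -0.60), and 0.123 and 0.146 in T cells (0.24, -0.04 to 0.52). In Kupffer cells, where it was highest, it had 1.99 and 2.05 (0.043, -0.36 to 0.45), and in pDCs 0.551 and 1.03, from 27 and 48 UMIs (0.90, 0.19 to 1.64). Stat2 had 0.857 and 0.366 in granulocytes (-1.23, -1.52 to -0.93), 0.884 and 0.615 in macrophages (-0.52, -0.62 to -0.43) and 0.247 and 0.208 in T cells (-0.25, -0.47 to -0.03). Irf9 had 1.02 and 0.602 in granulocytes (-0.76, -1.01 to -0.50), 0.469 and 0.451 in macrophages (-0.06, -0.17 to 0.06) and 0.357 and 0.308 in T cells (-0.21, -0.39 to -0.03).

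The last group holds Parp14, an ADP-ribosyltransferase, Trim30a, a regulator of Toll-like receptor signaling, the nuclear body component Sp100, and Ifi35. Trim30a had 5.34 and 2.97 in granulocytes (-0.84), a higher KD level than that of any other member but Isg15. Sp100 had 4.23 and 2.16 in granulocytes (-0.97, -1.10 to -0.85), 1.26 and 1.17 in macrophages (-0.11, -0.19 to -0.04) and 1.99 and 2.34 in T cells (0.23, 0.16 to 0.30). Sp100 alone made up 19.7% of the member UMIs of Ctrl T cells and 23.2% of those of KD T cells, and without it the summed log2 ratio of T cells was -0.067. Parp14 had -1.65 in granulocytes and -0.69 in macrophages, and Ifi35 -1.21 and -0.45.

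**Figure D2:**
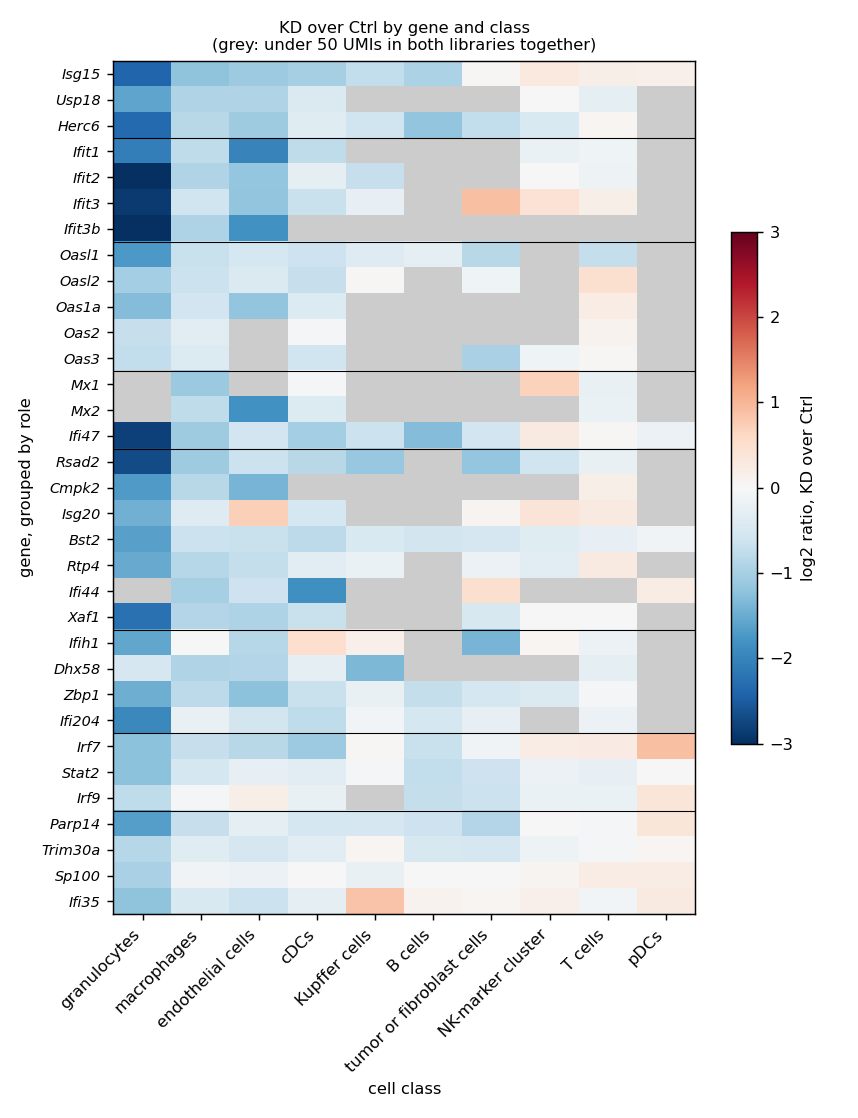
Log2 ratio of KD over Ctrl (color) for each of the 33 genes (rows, grouped by role, lines between groups) in 10 classes of cells (columns); grey marks genes under 50 UMIs in both libraries together. Blue, lower in KD, fills the granulocyte column, is paler in macrophages, endothelial cells and cDCs, and gives way to pale mixed colors in T cells and pDCs.

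**Figure D3:**
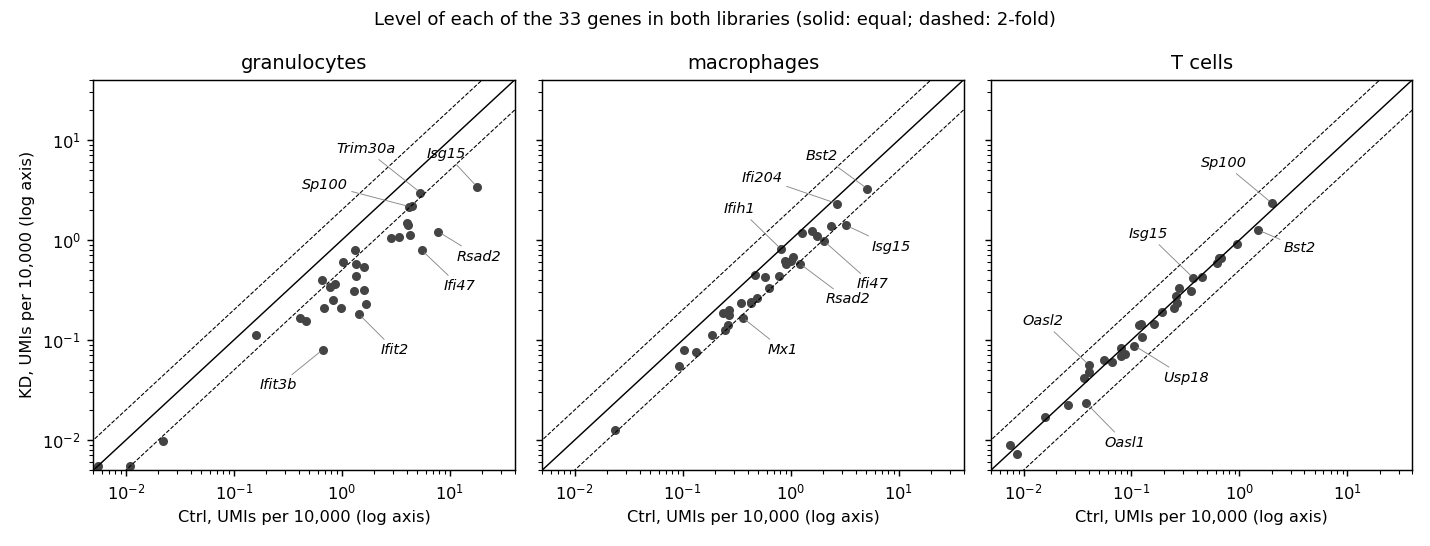
Level of each of the 33 genes in Ctrl (x axis) and KD (y axis), in UMIs per 10,000 on log axes, in granulocytes, macrophages and T cells; the solid line marks equal levels and the dashed lines 2-fold. Most granulocyte points lie below the lower dashed line, most macrophage points lie between it and the solid line, and T cell points lie along the solid line.

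Among the 24 genes with a promoter window, the median ratios with and without the ISRE letters were close in granulocytes and macrophages. In granulocytes the median log2 ratio was -1.62 over the 11 genes with the letters and -1.57 over the 12 counted genes without them. In macrophages the medians were -0.60 and -0.69. In T cells they were -0.099 over 10 counted genes with the letters and 0.046 over 12 without them. No match says only that these letters were not in this window.

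The libraries held different kinds of granulocytes, so the levels were followed within 6 sub-clusters, again found without the listed interferon genes. Sub-cluster 0, led by Il1a, Ccrl2 and Icam1, had the highest level in both libraries. It held 482 Ctrl cells (62.2% of granulocytes) and 265 KD cells (11.95%), and its summed level was 114 (112 to 116) in Ctrl and 52.9 (51.2 to 54.8) in KD, a log2 ratio of -1.10 (-1.16 to -1.05). Sub-cluster 1, led by Retnlg and Prok2, held 24 and 619 cells, with 60.5 and 23.2, and sub-cluster 2, led by Arf2, held 23 and 600 cells, with 47.6 and 26.1. Sub-cluster 3, led by Lypd6b and Fosb, held 175 and 415 cells, with 53.7 and 31.03 (-0.79, -0.87 to -0.72). The sub-cluster led by Camp, Ltf and Ngp, genes of granules made early in neutrophil maturation, had the lowest level in both libraries, at 26.0 over 44 Ctrl cells and 11.3 over 211 KD cells (-1.20). All 6 sub-clusters had a lower summed level in KD, with log2 ratios from -1.39 to -0.79.

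Only sub-clusters 0 and 3 held at least 50 cells in each library. In sub-cluster 0, 15 of 29 members were lower by 2-fold or more in KD, where 4.18% of all genes were, and all 29 had a log2 ratio below 0 (median -1.002). Isg15 had 25.1 and 9.85 there (-1.35, -1.48 to -1.22) and Rsad2 11.3 and 5.09 (-1.16, -1.34 to -0.98). In sub-cluster 3, 9 of 23 were lower by 2-fold or more, where 2.88% of all genes were. Isg15 had 11.4 and 5.30 (-1.10, -1.28 to -0.93), whereas Trim30a was among the 2 members with a log2 ratio above 0, with 3.38 and 4.29 (0.34, 0.08 to 0.62).

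In macrophages the levels were lower in KD in all 12 sub-clusters, 3 of which were led by genes of granulocytes, T or NK cells, or B cells. Sub-clusters 6 (led by Ltc4s and Pf4), 10 and 11 held only 7, 1 and 6 Ctrl cells, beside 332, 48 and 22 KD cells. Giving KD the Ctrl mix moved the log2 ratio only to -0.62. Of the 6 with at least 50 cells in each library, sub-cluster 3, led by Vcan and Chil3, as in monocytes, had the highest summed level in Ctrl, at 40.4 (39.6 to 41.3), and 21.3 (20.8 to 21.8) in KD, with the lowest log2 ratio of the 6 (-0.92, -0.97 to -0.88). There, 10 of 30 members were lower by 2-fold or more, where 2.13% of all genes were, and Ifi47 had 3.60 and 0.994 (-1.86). Sub-cluster 2, led by Ccl8, Mmp12 and Mgl2, had 27.0 and 20.5, the highest log2 ratio of the 6 (-0.40, -0.43 to -0.36), and 0 of 31 members past 2-fold, where 1.08% of all genes were lower by that much. The other 4 had log2 ratios from -0.67 to -0.57. In these, 4 of 32 members were lower by 2-fold or more in sub-cluster 0 (1.74% of all genes), 10 of 29 in sub-cluster 1 (3.85%), 7 of 30 in sub-cluster 4 (3.11%) and 9 of 28 in sub-cluster 5 (2.95%). Sub-cluster 5, led by Il1a and Cxcl1, also held 1 member higher by 2-fold or more, against 4.88% of all genes. This was Ifih1, with 1.27 in Ctrl and 2.71 in KD (1.09, 0.89 to 1.30). In sub-cluster 0, led by Ly6i and Upp1, Isg15 had 4.53 and 1.71 (-1.40, -1.51 to -1.30), while Sp100 had 1.12 and 1.14 (0.024, -0.13 to 0.17).

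**Figure D4:**
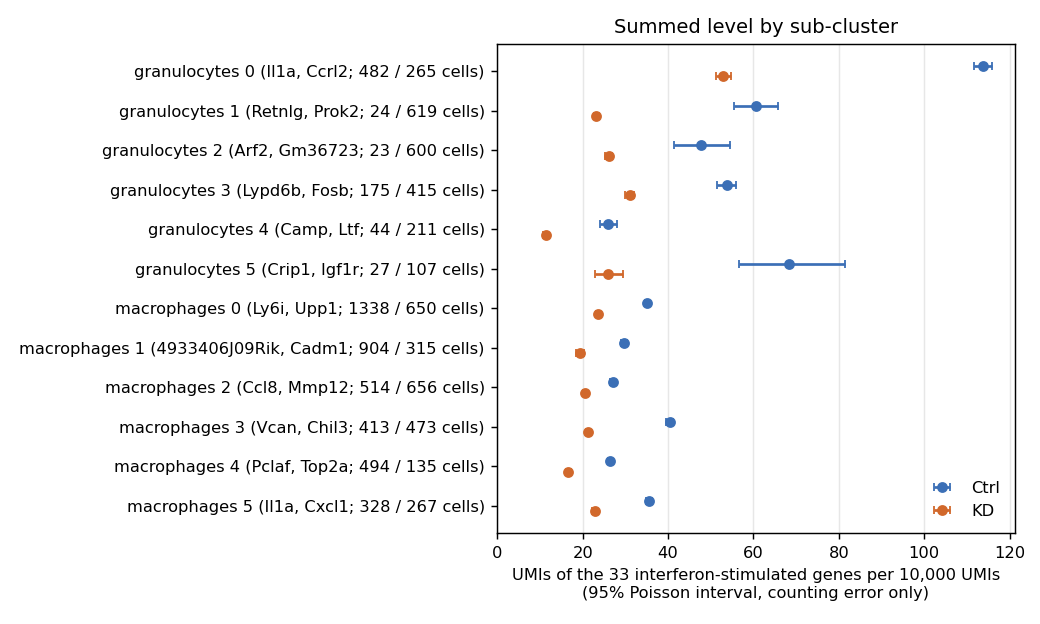
Summed UMIs of the 33 genes per 10,000 UMIs (x axis) in the 6 granulocyte sub-clusters and in the 6 macrophage sub-clusters with at least 50 cells in each library (y axis, with leading genes and Ctrl and KD cell numbers), bars for the 95% Poisson interval. The KD point lies left of the Ctrl point in each row, by most in granulocyte sub-cluster 0 (114 to 52.9).

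Per cell, the difference in granulocytes was seen across the class, with a median cell at 72.3 member UMIs per 10,000 in Ctrl and 19.4 in KD. After each cell was thinned to 500 UMIs, the lowest depth among the barcodes, 62.3% of Ctrl granulocytes (58.8% to 65.7%) and 17.3% of KD granulocytes (15.8% to 19.0%) had at least 3 UMIs of the 33 genes, a difference of -45.0 percentage points (-48.8 to -41.1). Within sub-cluster 0 the shares were 74.9% and 37.7%. In macrophages the shares were 22.8% (21.5% to 24.1%) and 11.1% (9.98% to 12.2%), a difference of -11.7 points (-13.4 to -9.96). In T cells they were 3.60% and 3.28%, a difference of -0.33 points (-1.40 to 0.84), and in pDCs 41 of 82 Ctrl cells and 41.1% of KD cells (29.7% to 53.2%). Without thinning the difference in macrophages was -1.44 points, since nearly every cell then passed 3 UMIs and KD macrophages were deeper (medians of 5580 and 7411 UMIs). An Isg15 UMI remained in 45.8% of Ctrl and 13.7% of KD granulocytes after thinning (75.5% and 37.6% without it, at medians of 2145 and 2809 UMIs). In T cells, the class with the lowest summed level, the thinned shares were 1.99% and 2.78% and the unthinned ones 16.5% and 18.1%, at medians of 6603.5 and 5573.5 UMIs.

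**Figure D5:**
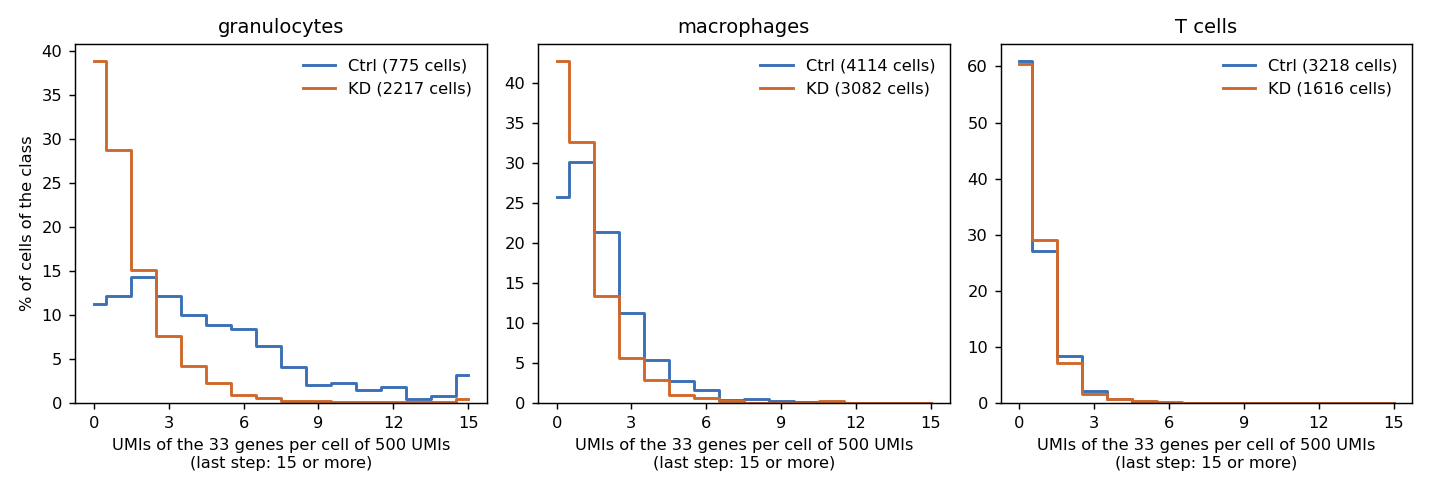
Share of cells (y axis, %) by the number of UMIs of the 33 genes in a cell thinned to 500 UMIs (x axis, the last step is 15 or more), for Ctrl and KD granulocytes, macrophages and T cells. The Ctrl granulocytes spread over the whole axis and 62.3% lie at 3 or more, while the T cell lines of both libraries lie on each other.

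The near-equal T cell levels were made of cells of different kinds. CD8+ T cells, those in which a UMI of Cd8a or Cd8b1 but none of Cd4 was seen, numbered 2590 in Ctrl and 913 in KD. Their summed level was 9.71 (9.58 to 9.84) and 8.73 (8.52 to 8.94), a log2 ratio of -0.15 (-0.19 to -0.11). CD4+ T cells, called in the opposite way, numbered 153 and 378, with 15.4 (14.5 to 16.2) and 12.98 (12.5 to 13.5), a log2 ratio of -0.24 (-0.34 to -0.15). Both were thus lower in KD than in Ctrl, and the CD4+ cells, with the higher level, were a larger part of the KD cells. The rest of the 3218 Ctrl and 1616 KD T cells, with neither or both kinds of UMI, were not summed apart. A lower level in KD is therefore shown for the CD8+ and CD4+ cells only, and not for all T cells. The part of this mix in the near-equal T cell levels was not tested. Among CD8+ T cells 3 of 30 members were lower by 2-fold or more, where 1.96% of all genes were lower and 1.27% higher, each from few UMIs in KD: Rsad2 (161 and 24), Oasl1 (86 and 8) and Mx2 (49 and 3; log2 ratio -2.44, -4.77 to -0.81). Bst2 had -0.37 (-0.48 to -0.25) there, and Sp100, the only member above 0, 0.25 (0.17 to 0.33). Among CD4+ T cells 0 of 17 were past 2-fold, where 0.657% of all genes were lower and 1.24% higher by that much.

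Among the other classes, endothelial cells had 10 of 30 members lower by 2-fold or more, where 2.31% of all genes were. These were the 4 Ifit genes, Mx2, Cmpk2, Zbp1, Oas1a, Isg15 and Herc6, with Ifit1 lowest (36 and 34 UMIs, log2 ratio -1.99, -2.71 to -1.28). Markers of other cells moved with the library in this class too. The 13 granulocyte markers summed to 1.39 in Ctrl and 17.97 in KD endothelial cells, with all 13 higher in KD and 3 at 0 in Ctrl, and the 14 macrophage markers to 18.5 and 25.9, with 13 higher. Their part in the endothelial values was not tested. In cDCs 4 of 31 were lower by 2-fold or more (Ifi44, Irf7, Ifi47 and Isg15), where 1.03% of all genes were, and in B cells 2 of 14 (Ifi47 and Herc6), against 0.91%. In pDCs 0 of 11 were past 2-fold, where 1.82% of all genes were lower by that much, and 8 of the 11 had a log2 ratio above 0, from few UMIs. Of the tumor or fibroblast cells, 2 of 23 members (Rsad2 and Ifih1) were lower by 2-fold or more, against 5.65% of all genes, and in the unnamed cluster 1 of 27 (Isg15), against 2.02%. In the cluster with NK markers the count was 0 of 23, where 1.03% of all genes were lower by that much.

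The genes upstream in the pathway were followed too. Over all cells, the 18 type I interferon genes had 57 UMIs in Ctrl and 35 in KD, of which Ifnb1, the gene for interferon-beta, had 50 and 30. Macrophages held 46 and 32 of these UMIs, and granulocytes and pDCs 0, so ligand levels could not be compared at this depth. The receptor gene Ifnar2 had a log2 ratio of 0.14 (-0.12 to 0.41) in granulocytes, 0.14 (0.064 to 0.22) in macrophages and 0.53 (0.30 to 0.76) in T cells. Ifnar1 had -0.080 (-0.37 to 0.22) in granulocytes and -0.037 (-0.12 to 0.049) in macrophages.

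Of 17 nucleic acid sensors, adaptors and kinases, which include 4 of the members, the median log2 ratio was -0.67 in granulocytes (3 of 11 lower by 2-fold or more, against 7.07% of all genes), -0.17 in macrophages (1 of 17, against 2.87%) and -0.033 in T cells (0 of 14, against 1.59%). The 3 in granulocytes were the members Ifih1, Zbp1 and Irf7, and 1 gene, Tlr7, was higher by 2-fold or more there, with 4 and 89 UMIs (2.48, 1.08 to 4.39), against 7.61% of all genes. The highest gene with at least 200 UMIs was the adaptor Myd88 in granulocytes (0.34) and the RNA sensor Tlr7 in macrophages (0.38), and the lowest were Ifih1 (-1.57) and Dhx58 (-0.90). In T cells the DNA sensor gene Cgas was lowest (-0.33) and Irf7 highest (0.24). Negative regulators, which include the members Usp18 and Trim30a, had medians of -0.84, -0.25 and 0.056. In granulocytes 3 of 7 were lower by 2-fold or more (7.07% of all genes), in macrophages 1 of 7 (2.87%) and in T cells 0 of 7 (1.59%). Socs1, an inhibitor of JAK kinases, was lowest in granulocytes (1.12 and 0.167, log2 ratio -2.75, -3.08 to -2.41) and macrophages (1.02 and 0.341, log2 ratio -1.57). It is also on the list of interferon-gamma targets below. The phosphatase gene Ptpn1 was highest in both (0.81 and 0.24). In T cells, Socs3 was highest (0.53) and Usp18 lowest.

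The 20 genes listed as interferon-gamma targets had lower medians than the 33 members. Their median log2 ratio was -2.54 in granulocytes, where 13 of 15 were lower by 2-fold or more (7.07% of all genes), -1.26 in macrophages (13 of 19, against 2.87%) and -0.29 in T cells (3 of 18, against 1.59%). Their summed level was 49.6 in Ctrl and 10.2 in KD granulocytes, and 48.1 and 21.1 in macrophages. The lowest gene was Gbp4, a guanylate-binding protein, in granulocytes (286 and 67 UMIs, levels 1.57 and 0.0925, log2 ratio -4.09, -4.49 to -3.70), Nos2, the inducible nitric oxide synthase, in macrophages (1.68 and 0.270; -2.63, -2.76 to -2.52), and the chemokine gene Cxcl9 in T cells (0.329 and 0.127; -1.37). Nos2 was the highest of the list in granulocytes, with 0.401 and 0.765 (0.93, 0.58 to 1.30). Ciita, the regulator of MHC class II genes, was highest in macrophages (-0.26), and Serpina3g in T cells (0.43). Many of these genes respond to both kinds of interferon, so the lists do not separate the pathways.

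Of 46 further interferon-stimulated genes, 45 were found, and their medians were -1.22 in granulocytes (21 of 38 lower by 2-fold or more, against 7.07% of all genes), -0.40 in macrophages (3 of 45, against 2.87%) and close to 0 in T cells (0 of 44, against 1.59%). In T cells 2 of the 44 were higher by 2-fold or more, where 2.53% of all genes were. Cxcl10, a chemokine that draws CXCR3+ T cells, was lowest in all 3 classes, with 15.03 and 0.848 in granulocytes (-4.15, -4.28 to -4.02), 12.9 and 4.92 in macrophages (-1.39) and 0.534 and 0.281 in T cells (-0.92). Ifitm1 was highest in granulocytes (45.8 and 68.1; 0.57, 0.54 to 0.61). Slfn4 was highest in macrophages (0.38) and in T cells (73 and 132 UMIs; 2.03, 1.603 to 2.46), and it had 10.3 and 7.68 in granulocytes, far above its T cell levels of 0.0290 and 0.118.

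Markers of other cells moved with the library. The 13 granulocyte markers summed to 4.72 in Ctrl and 23.4 in KD macrophages, with all 13 higher in KD, and to 1.17 and 10.0 in T cells, with 12 of 13 higher. None of the 13 was at 0 in either class. Leaving the UMIs of these markers out of the total UMIs moved the summed log2 ratio to -0.64 in macrophages and to -0.0018 in T cells. In granulocytes, where the markers summed to 771 and 1235, it moved to -1.65. The member UMIs stayed as they were, so these values cannot show how many of them came from other cells. The 14 macrophage markers in granulocytes summed to 18.8 and 21.7, with 5 higher and 9 lower in KD and none at 0. The part of free or doublet RNA in the levels of single members was not tested.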

How the data were processed

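CD45+ cells of 2 pooled libraries were profiled by droplet-based 3′ single-cell RNA sequencing. The deposited values are raw counts of UMIs for each gene in each barcode. Per the submitters' processing notes, the authors used Cell Ranger 7.1.0 and GRCm39. The annotation version is not given in the sources used here. RefSeq promoters are of GRCm38.p6, so only symbols were joined. Promoters of chromosome 18 were left out of the motif search.

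Of 21359 barcodes, 19999 were kept, with no fewer than 200 genes and no more than 6000 genes, 30000 UMIs and 10% mitochondrial UMIs. Clustering used Seurat 5.3.0 (R 4.3.3), 20 principal components, resolution 0.5 and 1979 variable genes, after 21 interferon genes had been left out of the 2000 asked for. Doublets were not removed in the main analysis. As an alternative, the 868 Ctrl and 958 KD barcodes of highest Scrublet score (scanpy 1.11.5) were left out. A cluster took the name of the marker list with the largest share of genes passing a log2 fold of 1 (0.1 per 10,000 added) in at least 10% of cells, with 3 markers needed. Ranking by share was chosen after the clusters were seen, since Kupffer cells were otherwise unnamed.

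Counts were summed per class. UMI sums have exact Poisson, log2 ratios exact conditional binomial and shares exact Clopper-Pearson 95% intervals. The interval of a difference between shares is approximate. Each limit takes the root of the summed squares of the distances from both shares to their Clopper-Pearson limits. Genes lower or higher by 2-fold were counted among those with at least 50 UMIs in both libraries together, beside the percentage over all genes. The intervals of the log2 ratios were checked on simulated Poisson counts. UMIs of 3′ libraries are not scaled by gene length, so levels of different genes compare molecules only as far as they are captured alike. The text gives every member by role, with both levels for the 3 highest and 3 lowest log2 ratios with at least 200 UMIs in granulocytes, macrophages and T cells and for Isg15, Irf7, Stat2, Irf9, Usp18 and Bst2. From the other lists it gives the highest and lowest gene with at least 200 UMIs. Stretches of sequence and genes outside this rule were chosen after their values were seen. The members and lists were chosen with earlier results of these data known. Some items are not reported here.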

Additional observations from a re-analysis of the deposited data

How the results depend on the processing

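No paired analysis was possible because each group has 1 library, and no replicate could be left out. No alternative gave a summed or counted difference of opposite direction in granulocytes or macrophages. The number of members past 2-fold stayed at 21 to 25 in granulocytes, 3 or 4 in macrophages and 0 in T cells. The summed log2 ratio of macrophages was -0.59 with TMM scaling, -0.62 without mitochondrial and ribosomal UMIs and -0.62 with the Ctrl mix of sub-clusters. The summed log2 ratio there was -0.74 as the mean over all 12 sub-clusters, 1 of which held only 1 Ctrl cell. That of granulocytes was -1.61 at resolution 1.0, -1.62 with classes from single cells, -1.68 with TMM scaling, -1.66 as a mean over cells, -1.58 without Isg15, -1.65 without granulocyte marker UMIs, -1.06 with the Ctrl mix, -1.12 as the mean over all 6 sub-clusters and -0.95 as the mean over the 2 with at least 50 cells in each library. That of T cells was 0.042 without likely doublets, 0.073 at resolution 1.0, 0.039 with classes from single cells, 0.038 as a mean over cells, -0.067 without Sp100, -0.15 in CD8+ and -0.24 in CD4+ T cells. The Ctrl mix, the means over all sub-clusters and the removal of granulocyte marker UMIs were chosen after seeing the data.

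The difference in the share of cells past a number of member UMIs depends on that number and on the depth by construction. In macrophages it was -26.2 points when thinned to 1500 UMIs, -17.1 with at least 1 UMI, -3.63 with at least 5 and -1.44 without thinning, and in granulocytes -35.2, -27.6, -34.7 and -15.5. The depth limits values of pDCs, Kupffer cells and B cells, where 11, 20 and 14 of the 33 genes had at least 50 UMIs.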

Other observations

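Across 22 sums (11 classes in 2 libraries), the summed level of the 33 genes was most alike to Tapbp, tapasin of the MHC class I loading complex, with a Pearson correlation of 0.90 on the log2 scale among 8951 genes outside the set with a mean of at least 10 CPM. Irf1, a transcription factor known to respond to interferon-gamma, followed with 0.85, and then Trib1 (0.84), Gm5617 (0.83), Gm37084 (0.82), Gng12 (0.81), Mapkapk2 (0.81), Fam174a (0.80), Atp6v1c1 (0.79) and the nonclassical MHC class I gene H2-T23 (0.79). The sums share 2 libraries and differ in depth, so these values are a description.

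Within the set, each gene was also set against the sum of the other 32 over the same 22 sums. Stat2 (0.81), Irf7 (0.80) and Ifit2 (0.77) followed the others most closely. Sp100 (-0.081), Isg20 (-0.035), Mx1 (0.099) and Bst2 (0.10) followed them least. Of the 33 genes, 22 had their highest level in Ctrl granulocytes, while Bst2, Stat2 and Usp18 were highest in Ctrl pDCs, Mx1 in KD pDCs, Ifit2, Oasl1 and Dhx58 in Ctrl and Irf7 in KD Kupffer cells, Mx2 and Ifi44 in Ctrl endothelial cells and Ifi35 in Ctrl cDCs.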
